A study of Neurospora crassa with 4 samples.

Results

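The difference between Δczt-1 and wild-type *Neurospora crassa* in the response to staurosporine is described here for every gene row that reached a minimum level in any of 4 libraries. The response of a strain is the change of log2(FPKM + 1) in staurosporine-treated relative to DMSO-treated cells, where FPKM, fragments per kilobase of transcript scaled to the mapped fragments of the library, is the expression level. The response of wild type was subtracted from that of Δczt-1, so a negative value, here called the difference, means that a gene rose less, or fell more, in the deletion. The 2 tables with these values were joined by gene name, and 7896 of 9691 rows had an FPKM of at least 1 in any of 4 libraries and were kept. Just inside that limit were NCU06784, with a highest FPKM of 1.00127, and NCU04539 with 1.00266, and just outside were NCU08058 with 0.998379 and NCU02944 with 0.99229.

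The series asked how germinating conidia of the 2 strains respond to staurosporine, an inhibitor of protein kinases that kills this fungus. The groups were Δczt-1 with staurosporine, Δczt-1 with DMSO, wild type with staurosporine and wild type with DMSO, and each was 1 library of poly(A) RNA. In all of them conidia had germinated for 6 h at 26 °C under constant light in minimal medium, and the drug at 20 µM or its solvent DMSO was then present for 1 h. Δczt-1 lacks NCU09974, and the labels give neither the mating type of the strains nor another isolate of the deletion.

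CZT-1 is a zinc cluster transcription factor, a class of fungal regulators that often control pumps and metabolic enzymes needed under chemical stress. Fungal cells commonly answer a toxic compound by exporting it through ATP-driven pumps, by refolding or removing damaged proteins and by cutting the costly production of ribosomes. The endoplasmic reticulum (ER) has its own answer, in which chaperones, glycosylation enzymes and membrane lipid synthesis are adjusted to the load of secretory proteins. The results below follow these functions, from the deleted gene and its pump to lipids, the ER, ribosomes, mitochondria, metabolism and regulators.

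There was no replicate in any group, so no difference has a replicate check, no test was run, and "rose", "fell", "lost", "gained" and "reversed" refer to size alone at a threshold of 2-fold. The deleted gene was at 1.54 and 2.26 FPKM in Δczt-1 and 384 and 19.7 FPKM in wild type. FPKM summed to 550288 with staurosporine and 877439 with DMSO in Δczt-1 and to 570298 and 1072130 in wild type, so some results that turn on this unequal sum are also given with every library scaled to the same sum. Class counts of a list without such a scaled value hold only for the FPKM as deposited. How many reads were mapped in each library is unknown here. The 1st percentile of FPKM multiplied by gene length in kilobases, which is smaller where more reads were sequenced, was 0.110 with staurosporine and 0.0536 with DMSO in Δczt-1 and 0.117 and 0.0549 in wild type. The pheromone precursor gene mfa-1 (NCU12157) was at 2367 and 703 FPKM in Δczt-1 and 4.32 and 3.72 FPKM in wild type, and the mating-type gene matA-1 (NCU01958) was listed at 0 in both Δczt-1 libraries and at 2.10 and 0.940 FPKM in wild type. In bulk RNA a loss of cells and a lower level per cell cannot be told apart. The 2 strains also differed in transcripts tied to mating type with and without the drug, so effects of the deletion and of other strain background cannot be told apart here.

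Over the 7896 rows the difference had a median of -0.07 and an SD across rows of 1.07, and it ran from -6.72 to 5.43. In 1063 rows (13.5%) it was at least 1, and in 1380 rows (17.5%) it was at most -1. With every library at the same FPKM sum the counts were 893 and 1811. The difference equals the strain difference under staurosporine minus that under DMSO. In the 1380 rows at or below -1 the median strain difference, Δczt-1 minus wild type, was -1.14 with staurosporine and 0.36 with DMSO, and the staurosporine value was the larger in size in 78.9% of them. In the 1063 rows at or above 1 the same medians were 1.18 and -0.31, with 78.7% larger in size under staurosporine. The rows were chosen by the difference of these 2 values, which sets their opposite signs, and over all rows the strain difference also spread more with staurosporine (SD across rows 0.92) than with DMSO (0.53).

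A response was called lost where wild type changed by at least 2-fold, Δczt-1 by less than 2-fold and the difference was also at least 2-fold, and gained where the strains stood the other way round. A rise was lost in 264 rows (3.34%) and a fall in 151 rows (1.91%). A rise was gained in 546 rows (6.91%) and a fall in 496 rows (6.28%). A wild-type rise became a fall in 33 rows (0.418%) and a wild-type fall became a rise in 42 rows (0.532%). Both strains moved the same way but Δczt-1 by over 2-fold more in 114 rows that rose (1.44%) and 242 rows that fell (3.06%). In 3683 rows (46.6%) neither response nor the difference reached 2-fold. More rows therefore gained a response in Δczt-1 (1042) than lost one (415) in the FPKM as deposited. The size of this excess depends on the scaling. With every library at the same FPKM sum, lost rises (828) outnumbered gained rises (514), while gained falls (495) still outnumbered lost falls (67).

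**Figure D1:**
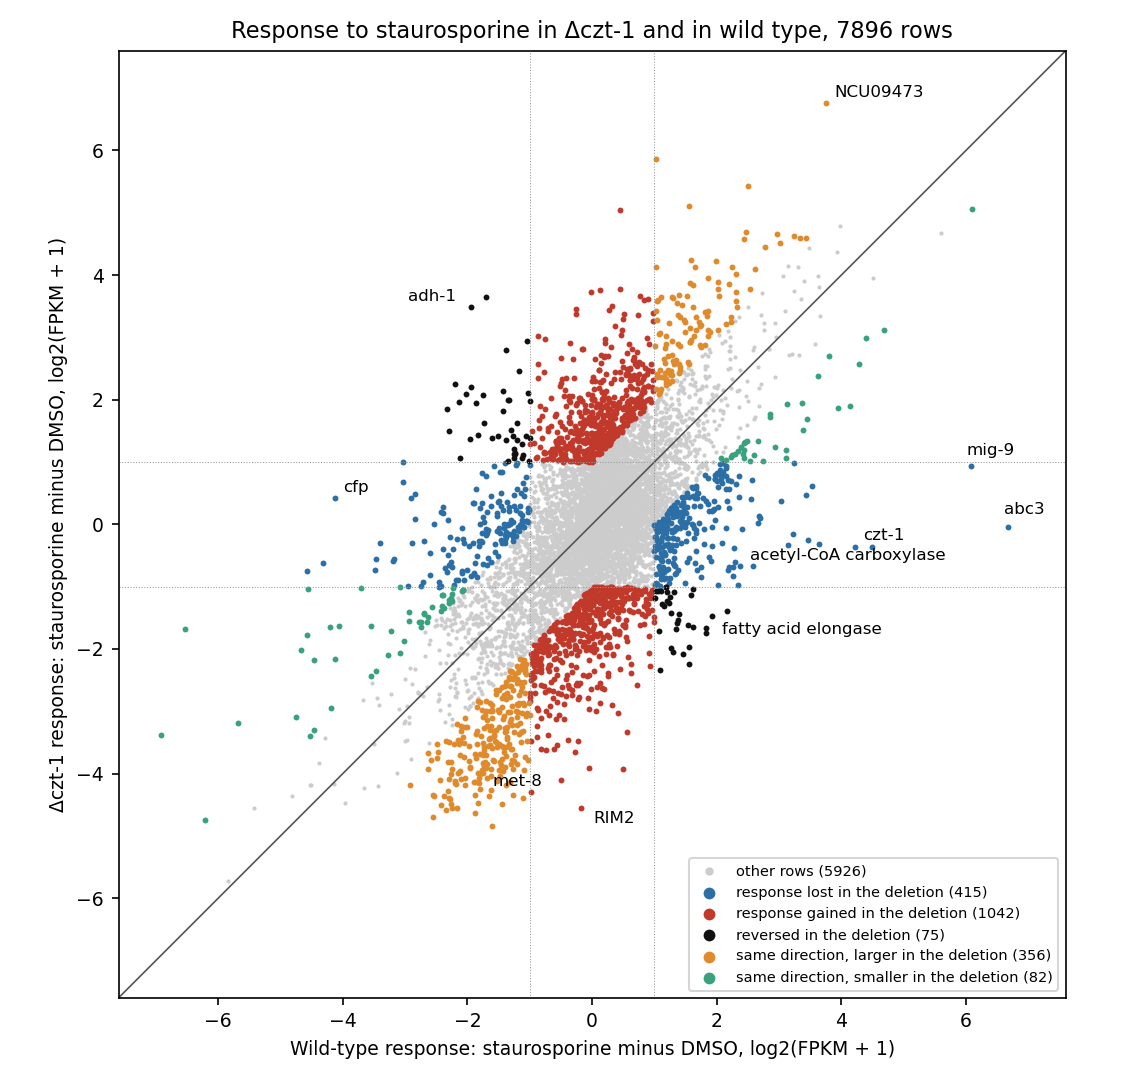
Response to staurosporine of 7896 gene rows in Δczt-1 (vertical axis) against wild type (horizontal axis), both as staurosporine minus DMSO on the log2(FPKM + 1) scale, 1 library per group. Points on the diagonal responded equally, dotted lines mark 2-fold, and colors mark the 415 lost, 1042 gained and 75 reversed responses and those that were larger (356) or smaller (82) in Δczt-1.

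The scatter of the 2 responses shows abc3 and czt-1 far to the right near a Δczt-1 response of 0, and mig-9 far to the right just under the 2-fold line. It also shows a dense group below the diagonal in which both strains fell and Δczt-1 fell further. Which class a row takes depends on the scaling, because a class is set by where each response lies relative to 0. With all libraries at the same FPKM sum the median response moved to 0.60 in Δczt-1 and 0.85 in wild type and the median difference to -0.27, and lost rises numbered 828 with 221 of the 264 rows among them. Under that scaling falls larger in Δczt-1 numbered 74, gained rises 514, gained falls 495 and lost falls 67. Only 233 of the 496 gained falls kept that class. The difference itself moved less: 1378 of the 1380 rows at or below -1 and 858 of the 1063 rows at or above 1 kept that call. No difference of at least 1 in size, of a gene or of a list median, changed sign under a scaling for the genes and lists named below. Smaller list medians did: at the same FPKM sum those of tRNA synthetases (-0.18), complex II with the TCA cycle (-0.06), trehalose and glycogen (-0.02) and antioxidant enzymes (-0.02) fell below 0, and with each response centred on its median row those of ubiquitin conjugation (0.06) and the MFS transporters (0.05) stood above 0.

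Gene length moved with the difference across the genome. Lengths, taken as the genomic span in the RefSeq NC12 annotation, were found for 7517 rows. They were put in 10 groups of nearly equal size by length. In the shortest group, with a median of 967 bases, the median difference was 0.50, and in the longest group, with a median of 5194 bases, it was -0.57. The shortest group had median responses of 0.37 in Δczt-1 and -0.01 in wild type, and the longest had -0.13 and 0.46. Part of this was present without the drug, where the strain difference had a median of -0.12 in the shortest and 0.43 in the longest group. The part of length in the results below was not tested, and beside the median difference of a list stands its value after the length medians, which is the median after subtracting from each member the median of its length group.

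**Figure D2:**
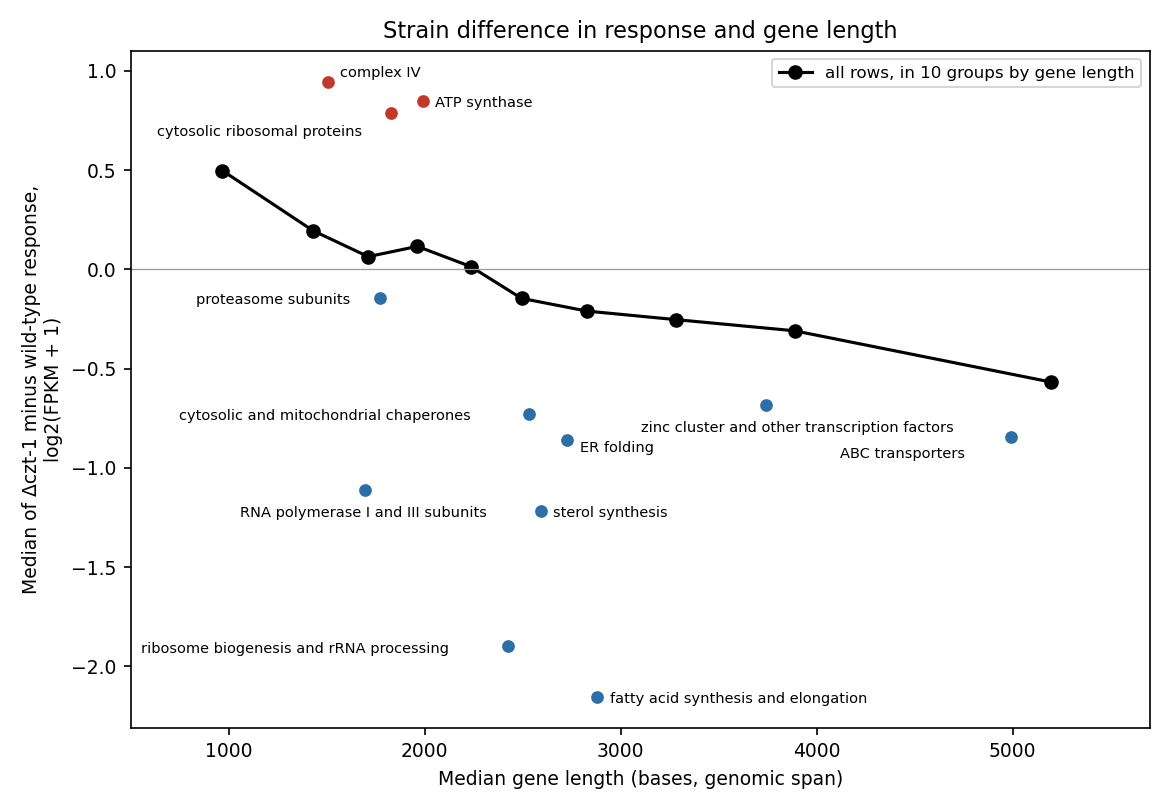
Median of the Δczt-1 response minus the wild-type response (log2(FPKM + 1) scale, vertical axis) against median gene length in bases (horizontal axis) for 10 equal groups of 7517 rows (black) and for 12 function lists (red above 0, blue below 0). The black line falls from 0.50 to -0.57, and the lists of fatty acid synthesis (-2.15) and ribosome biogenesis (-1.90) lie far below it while complex IV (0.95) and ATP synthase (0.85) lie above it.

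The plot against gene length shows that ABC transporters lie close to the line of all rows, whereas fatty acid synthesis and ribosome biogenesis stay at -1.84 and -1.86 on the log2 scale relative to rows of like length.

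The rise of abc3 (NCU09975), which encodes an ABC pump known to be needed for staurosporine resistance, was lost. Its level was 12.99 FPKM with staurosporine and 13.4 FPKM with DMSO in Δczt-1, against 798 and 6.79 FPKM in wild type, which gave the lowest difference in the data at -6.72. The neighbour on the far side of abc3, the rhamnogalacturonan acetylesterase gene NCU09976, had 0.308 and 0.459 FPKM in Δczt-1 and 9.47 and 0.126 FPKM in wild type. On the opposite flank of czt-1, NCU09973 had 23.5 and 31.2 FPKM in Δczt-1 and 13.7 and 7.88 FPKM in wild type and NCU09972 had 50.3 and 89.9 FPKM in Δczt-1 and 97.9 and 56.1 FPKM in wild type, with differences of -1.12 and -1.62. These 3 neighbours were picked after their values were seen. Among them NCU09976 was raised only in drug-treated wild type, as abc3 was, whereas NCU09973 was higher in both Δczt-1 libraries than in either wild-type library. An effect of the altered locus on its neighbours and an effect of losing the factor cannot be told apart. The pyridoxal reductase gene mig-9 (NCU09141), of a family that reduces vitamin B6 aldehydes, had 72.03 and 37.1 FPKM in Δczt-1 and 5802 and 84.9 FPKM in wild type. Its wild-type response of 6.08 shrank to 0.94 in Δczt-1, a difference of -5.14.

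In fatty acid synthesis the median responses of the strains had opposite signs. Its 14 measured genes had a median response of -0.98 in Δczt-1 and 1.08 in wild type, and 12 of them had a difference of at most -1, where 17.5% of all rows did. The median difference was -2.15, and -1.84 after subtracting the length medians. Acetyl-CoA carboxylase (NCU08535), which makes the malonyl-CoA that fatty acids are built from, had 116 FPKM with staurosporine and 185 FPKM with DMSO in Δczt-1, against 598 and 115 FPKM in wild type. It was high in treated wild type alone. The enzyme needs biotin, and the biotin apo-protein ligase gene NCU05516 had 37.7 and 47.4 FPKM in Δczt-1 and 286 and 31.6 FPKM in wild type. ATP citrate lyase (NCU06783), the source of cytosolic acetyl-CoA, had 644 and 1327 FPKM in Δczt-1 and 3814 and 1237 FPKM in wild type. A fatty acid elongase (NCU06694) had 54.4 and 152 FPKM in Δczt-1 and 528 and 139 FPKM in wild type, and another one (NCU08976) had 160.5 and 389 FPKM in Δczt-1 and 808 and 345 FPKM in wild type. In these 3 genes the treated Δczt-1 library was the lowest of the 4 and treated wild type the highest. The β subunit of fatty acid synthase (cel-2, NCU07307), the member nearest to the list median, had 123 and 260.3 FPKM in Δczt-1 and 380.3 and 177 FPKM in wild type. An exception in level, though not in the sign of the difference, was the D12/D15 desaturase NCU09497, which puts double bonds into fatty acids and fell in both strains with 26.9 and 489 FPKM in Δczt-1 and 217 and 544 FPKM in wild type. By class, 5 genes reversed (0.418% of all rows did), 3 lost a rise, 1 gained a fall and 1 fell further. With libraries at the same sum, 11 counted as a lost rise, where 828 of all 7896 rows did, and 1 as a gained fall, where 495 did. None counted as reversed, where 54 of all rows reversed a wild-type rise. The median responses were then -0.31 in Δczt-1 and 1.98 in wild type.

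Sterol synthesis, which makes the ergosterol of fungal membranes, moved in the same direction and less far. Its 20 genes had median responses of -0.89 in Δczt-1 and 0.28 in wild type, the median difference was -1.22 (-1.07 after the length medians) and 11 genes were at or below -1, where 17.5% of all rows were. Hydroxymethylglutaryl-CoA synthase (NCU03922), an early enzyme of the pathway, had 157 FPKM with staurosporine and 535 FPKM with DMSO in Δczt-1, against 453 and 446 FPKM in wild type. The reductase that follows it (NCU00712) had 51.2 and 120.1 FPKM in Δczt-1 and 70.8 and 69.1 FPKM in wild type. Both were steady in wild type and lower in treated Δczt-1, though the reductase was also higher in Δczt-1 with DMSO than in wild type with DMSO. Sterol 24-C-methyltransferase (erg-4, NCU03006) was likewise lowest in treated Δczt-1, with 67.8 and 210.4 FPKM in Δczt-1 and 206 and 181 FPKM in wild type. The lathosterol oxidase NCU04983 gained a fall with a difference of -1.74. Cytochrome P450 61 (NCU05278), a desaturase of the last steps, had 74.1 and 155 FPKM in Δczt-1 and 218 and 111 FPKM in wild type. Phosphomevalonate kinase (NCU08671) was the clearest lost rise, with 30.1 and 50.2 FPKM in Δczt-1 and 106 and 45 FPKM in wild type. With libraries at the same sum, 8 genes counted as a lost rise and 3 as a gained fall, against 2 and 8 before scaling. Over all 7896 rows the scaled counts were 828 and 495. By contrast, β-oxidation, the breakdown of fatty acids, had a median difference of -0.15 (-0.30 after the length medians) over 21 genes, though the acyl-CoA dehydrogenase gene acd-1 (NCU02287) lost its rise with 42.04 and 31.6 FPKM in Δczt-1 and 176 and 29.3 FPKM in wild type.

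Of the 20 ER folding genes 7 lost a rise, where 3.34% of all rows did, and 9 reached 2-fold in neither strain nor in the difference, as 46.6% of all rows did. Over the list the median response was 0.17 in Δczt-1 and 1.07 in wild type, with a median difference of -0.86 (-0.63 after the length medians). All 7 genes at or below -1 (35.0% of the list, 17.5% of all rows) were lost rises. The chaperone grp78 (NCU03982), the ER member of the Hsp70 family, had 208 FPKM with staurosporine and 328 FPKM with DMSO in Δczt-1, against 731 and 294 FPKM in wild type. A protein disulfide-isomerase (NCU09223), which forms disulfide bonds in new proteins, had 211 and 185 FPKM in Δczt-1 and 441 and 178 FPKM in wild type, and another disulfide isomerase (NCU00813) had 23.4 and 16.2 FPKM in Δczt-1 and 64.9 and 19.4 FPKM in wild type. A pair of enzymes that check the folding of glycoproteins followed the same order. UDP-glucose:glycoprotein glucosyltransferase (NCU02349) had 18.9 and 16.97 FPKM in Δczt-1 and 38.1 and 13.7 FPKM in wild type, and the α subunit of glucosidase II (gh31-2, NCU04203) had 80.2 and 58.7 FPKM in Δczt-1 and 112 and 39.1 FPKM in wild type. In all 5 genes the treated wild-type library was the highest of the 4. At the same FPKM sum the median responses were 0.82 in Δczt-1 and 1.88 in wild type, and 6 genes counted as a lost rise and 5 as a rise smaller in Δczt-1. Lost rises then numbered 828 of all 7896 rows.

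Further along the secretory route the list medians had the same sign and were smaller in size. The 47 genes of N-glycosylation, O-mannosylation and GPI anchors had a median difference of -0.70 (-0.54 after the length medians), with 15 at or below -1 (31.9%, against 17.5% of all rows) and 0 at or above 1. Mannose-1-phosphate guanyltransferase (NCU06003), which makes the GDP-mannose used in glycosylation, had 124 and 309.7 FPKM in Δczt-1 and 366 and 206 FPKM in wild type, and the GDP-mannose transporter (NCU06198) that carries it into the Golgi had 59.2 and 86.2 FPKM in Δczt-1 and 115 and 53.3 FPKM in wild type. A mannosyl transferase gene (NCU04454) reversed, with 36.4 and 92.3 FPKM in Δczt-1 and 192 and 85.5 FPKM in wild type. The 38 genes of COPI and COPII coats and the Golgi had a median difference of -0.55 (-0.43 after the length medians) and the 29 genes of SNAREs, exocyst and vesicle fusion one of -0.35 (-0.14 after the length medians). At or below -1 were 8 (21.1%) and 6 (20.7%) of them, near the 17.5% of all rows. A rise was lost in 2 genes of each list (5.26% and 6.90%, against 3.34% of all rows). Among them the COPII vesicle protein NCU04293 had 21.1 and 27.5 FPKM in Δczt-1 and 54.3 and 25.1 FPKM in wild type, and the vesicle protein sed5 (NCU00778), a SNARE of the Golgi, had 23.5 and 24.8 FPKM in Δczt-1 and 43.7 and 16.7 FPKM in wild type. Prenylated Rab acceptor 1 (NCU11237), a membrane protein of the same route, had 114 and 95.1 FPKM in Δczt-1 and 196 and 42.04 FPKM in wild type. These 3 genes rose in wild type and not in Δczt-1.

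**Figure D3:**
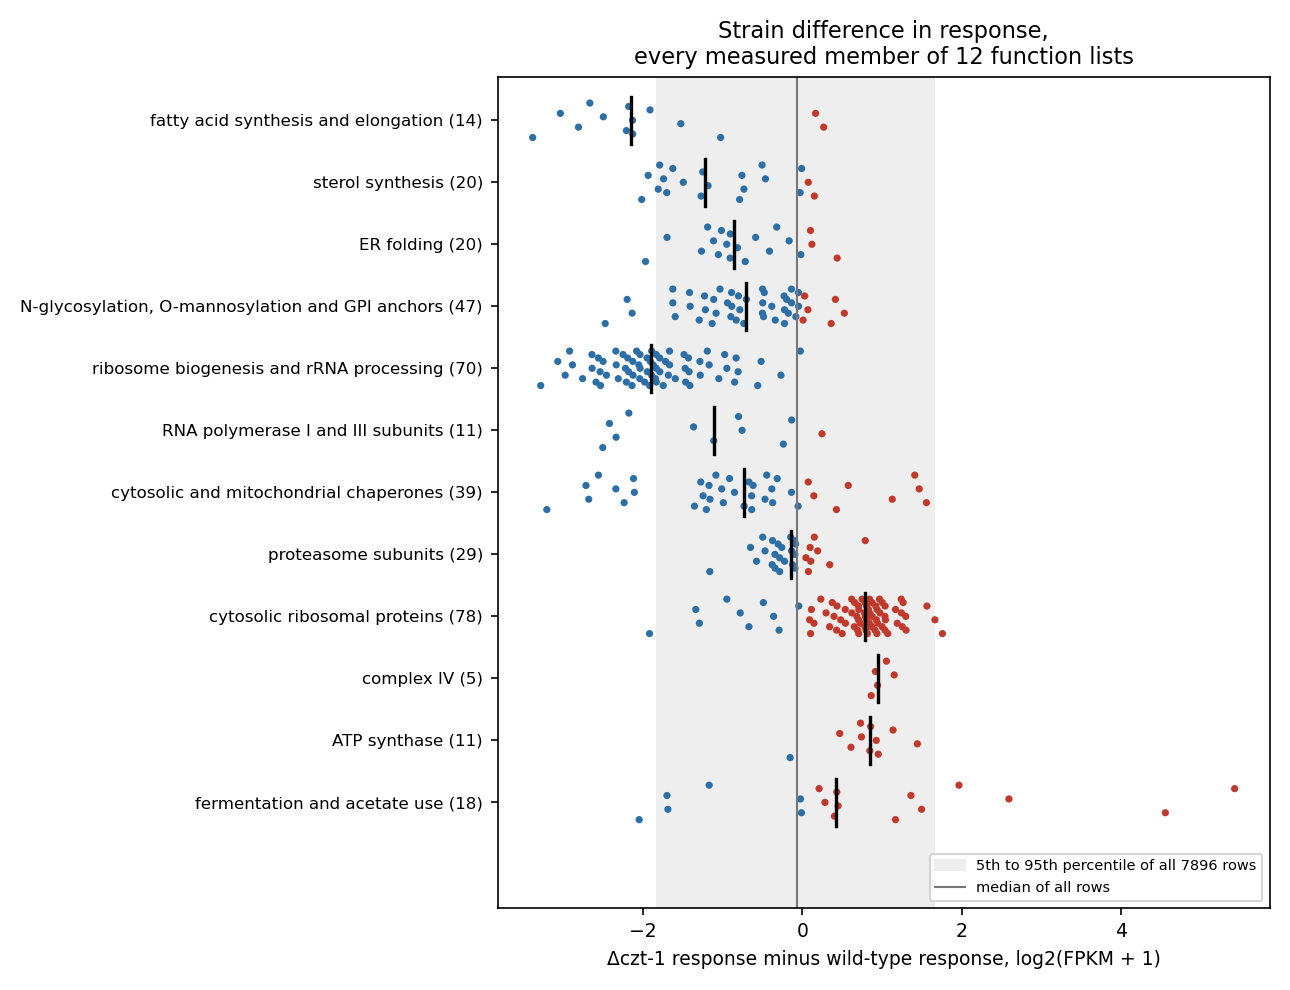
Δczt-1 response minus wild-type response (log2(FPKM + 1) scale, horizontal axis) for every measured member of 12 function lists, with members measured in brackets, points above 0 in red and below 0 in blue, and list medians as black bars. The gray band spans the 5th to 95th percentile of all rows (-1.82 to 1.66); all 70 ribosome biogenesis genes lie below 0 and all 5 complex IV genes above it.

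Ribosome production fell in both strains, and its 2 arms moved apart in Δczt-1. The plot of members shows the genes that build ribosomes to the left of 0 and most genes of the ribosome itself to the right. The 70 genes of ribosome biogenesis and rRNA processing had a median response of -3.56 in Δczt-1 and -1.57 in wild type. All 70 differences were below 0, 61 were at most -1 (87.1%, against 17.5% of all rows), and the median was -1.90 (-1.86 after the length medians). Eukaryotic ribosome biogenesis protein 1 (NCU03321), which acts on the large subunit, had 1.93 FPKM with staurosporine and 60.5 FPKM with DMSO in Δczt-1, against 15.99 and 35.6 FPKM in wild type. The nucleolar ATPase Kre33 (NCU02284), an rRNA acetyltransferase in yeast, had 0.679 and 32.98 FPKM in Δczt-1 and 8.37 and 21.6 FPKM in wild type. Periodic tryptophan protein 2 (NCU03794), part of the small subunit processome, had 1.38 and 28.4 FPKM in Δczt-1 and 13.4 and 23.03 FPKM in wild type. In all 3 the treated Δczt-1 library was far below the others, and Δczt-1 with DMSO was the highest. Fibrillarin (NCU03702), the rRNA methyltransferase nearest to the list median, had 27.1 and 362 FPKM in Δczt-1 and 109.5 and 383 FPKM in wild type. The karyopherin Kap123 (NCU05650), which imports ribosomal proteins into the nucleus in yeast, had 2.898 and 110.4 FPKM in Δczt-1 and 24.8 and 77.4 FPKM in wild type, and the RNA helicase gene ded-1 (NCU01369), a translation initiation factor, had 15.9 and 381 FPKM in Δczt-1 and 157 and 427 FPKM in wild type. Of the 70 genes, 53 fell in both strains and further in Δczt-1, where 3.06% of all rows did, and 8 gained a fall. At the same FPKM sum the numbers were 17 and 49, with median responses of -3.04 in Δczt-1 and -0.68 in wild type, while the median difference was -2.22. Over all 7896 rows the scaled counts of these 2 classes were 74 and 495.

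RNA polymerases I and III, which transcribe rRNA and tRNA, went with the biogenesis genes. Their 11 subunits had median responses of -1.93 in Δczt-1 and -0.98 in wild type and a median difference of -1.11 (-1.31 after the length medians), and 6 were at or below -1, where 17.5% of all rows were. The largest subunit of polymerase I, RPA1 (NCU01638), had 2.13 FPKM with staurosporine and 50.5 FPKM with DMSO in Δczt-1, against 9.89 and 32.4 FPKM in wild type, and RPA2 (un-18, NCU08616) had 2.43 and 44.3 FPKM in Δczt-1 and 14.6 and 39.8 FPKM in wild type. The polymerase III subunit rpc-3 (NCU03560) had 1.91 and 39.2 FPKM in Δczt-1 and 11.3 and 28.9 FPKM in wild type. Translation initiation and elongation factors, 35 genes, had a median difference of -0.49 (-0.41 after the length medians). Among them eIF4A (NCU07420), the helicase of initiation, had 228 and 2195 FPKM in Δczt-1 and 567 and 1897 FPKM in wild type, and elongation factor 3 (NCU07922), a translation factor of fungi, had 154 and 1053 FPKM in Δczt-1 and 487 and 967 FPKM in wild type. The 38 tRNA synthetases had a median difference of 0.06 (0.18 after the length medians), and 25 of them, against 46.6% of all rows, reached 2-fold in neither strain nor in the difference.

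The cytosolic ribosomal proteins went the other way. Their 78 genes had a median response of -1.37 in Δczt-1 and -2.10 in wild type, and the difference was above 0 in 68 of them with a median of 0.79 (0.68 after the length medians). In 18 genes (23.1%, against 13.5% of all rows) it was at least 1, of which 8 were lost falls (1.91% of all rows) and 10 falls smaller in Δczt-1. The 40S protein S13 (NCU03038) had 2936 FPKM with staurosporine and 4443 FPKM with DMSO in Δczt-1, against 1461 and 7021 FPKM in wild type. The 60S protein L22 (NCU06661) had 2131 and 4231 FPKM in Δczt-1 and 1073 and 7217 FPKM in wild type, and L19 (NCU05804), the gene nearest to the list median, had 1436 and 4270.3 FPKM in Δczt-1 and 1221 and 6277 FPKM in wild type. Treated wild type was the lowest library and wild type with DMSO the highest in each. In contrast, 3 members were at or below -1, among them the row described as 60S acidic ribosomal protein P0 (NCU07547), with 5.53 and 112 FPKM in Δczt-1 and 25.7 and 121 FPKM in wild type, levels far under those of the other ribosomal proteins named here. At the same FPKM sum the median responses were -0.69 in Δczt-1 and -1.19 in wild type. The 31 mitochondrial ribosomal proteins fell about alike, with medians of -1.91 in Δczt-1 and -1.63 in wild type. Their median difference was -0.29 (-0.38 after the length medians). Of them 23 (74.2%, against 6.03% of all rows) fell in both with a difference under 2-fold.

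**Figure D4:**
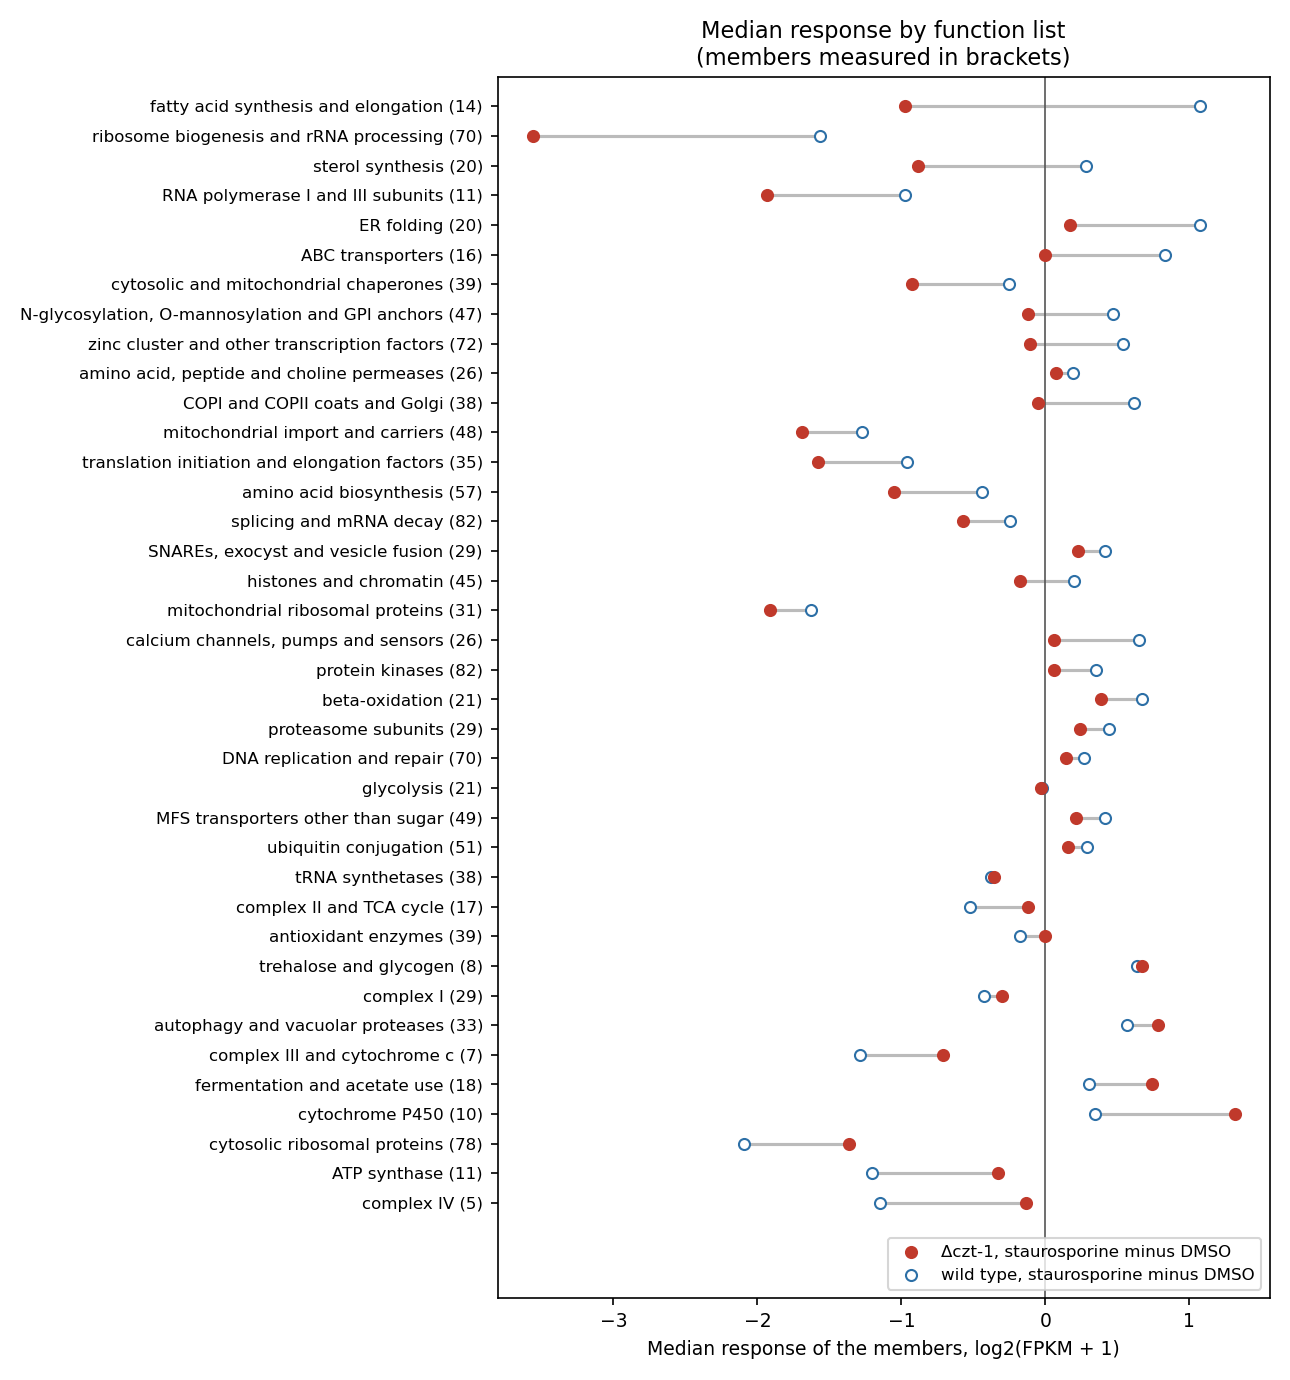
Median response (staurosporine minus DMSO, log2(FPKM + 1) scale, horizontal axis) of 38 function lists in Δczt-1 (filled red) and wild type (open blue), ordered by the median difference with the lowest at the top and with the number of measured members in brackets. Fatty acid synthesis spans 0, ribosome biogenesis lies far left in Δczt-1 (-3.56), and cytosolic ribosomal proteins, ATP synthase and complex IV have the Δczt-1 point to the right of the wild-type point.

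Well-known chaperones of the cytosol and mitochondria were at their lowest in treated Δczt-1. The plot of list medians places them near the ER genes but with both points below 0. Of 39 genes, 16 (41.0%) were at or below -1 and 4 (10.3%) at or above 1, against 17.5% and 13.5% of all rows, and 10 gained a fall, where 6.28% of all rows did. The median response was -0.93 in Δczt-1 and -0.25 in wild type, and the median difference was -0.73 (-0.71 after the length medians). The cytosolic chaperone hsp70-1 (NCU09602) had 189 FPKM with staurosporine and 1306 FPKM with DMSO in Δczt-1, against 1039 and 1089.9 FPKM in wild type, and hsp80 (NCU04142), the fungal Hsp90, had 158 and 470.0 FPKM in Δczt-1 and 625 and 313 FPKM in wild type. The mitochondrial chaperonin hsp60 (NCU01589) had 54.3 and 349 FPKM in Δczt-1 and 305 and 382 FPKM in wild type, and a gene with the domain of Aha1 (NCU04087), a co-chaperone that activates Hsp90, had 28.96 and 181 FPKM in Δczt-1 and 126 and 119 FPKM in wild type. Each was lowest in treated Δczt-1. At the same FPKM sum hsp80 counted as a lost rise, while hsp70-1, hsp60 and NCU04087 stayed gained falls. The machinery of protein removal showed little of this. Of 29 proteasome subunits, 27 reached 2-fold in neither strain nor in the difference, against 46.6% of all rows, and the median difference of the list was -0.15 (-0.21 after the length medians). Ubiquitin conjugation, with 51 genes, had a median of -0.05 (0.10 after the length medians). Autophagy and vacuolar proteases had median responses of 0.78 in Δczt-1 and 0.57 in wild type over 33 genes, of which 15 reached 2-fold in neither strain nor in the difference, near the 46.6% of all rows. The autophagy kinase gene apg-1 (NCU00188) had 53.8 and 9.75 FPKM in Δczt-1 and 12.3 and 4.87 FPKM in wild type, and vacuolar protease A (pep4, NCU02273), which activates other vacuolar enzymes, had 751 and 126 FPKM in Δczt-1 and 484 and 164 FPKM in wild type, so both rose further in Δczt-1.

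In the FPKM as deposited, the fall of several respiratory complexes in wild type was small in Δczt-1. Complex IV, which passes electrons to oxygen, had median responses of -0.13 in Δczt-1 and -1.15 in wild type over 5 nuclear genes, and the differences lay between 0.87 and 1.15. The complex IV subunit gene cox-6 (NCU06695) had 594 FPKM with staurosporine and 591 FPKM with DMSO in Δczt-1, against 476 and 1055 FPKM in wild type. ATP synthase had medians of -0.33 in Δczt-1 and -1.20 in wild type over 11 genes, 10 of them with a difference above 0. Its subunit 5 (NCU01606) had 977 and 834 FPKM in Δczt-1 and 635 and 1477 FPKM in wild type, and the β subunit (atp-2, NCU05430), which holds the catalytic site, had 2352 and 2995 FPKM in Δczt-1 and 2165 and 5255 FPKM in wild type. In these genes Δczt-1 with DMSO was already under wild type with DMSO, and the treated libraries stood in the opposite order. The median difference was 0.95 for complex IV and 0.85 for ATP synthase, and 0.72 and 0.65 after the length medians. Only 2 of the 5 (40.0%) and 2 of the 11 genes (18.2%) reached a difference of 1, against 13.5% of all rows. At the same FPKM sum no gene of either complex responded by 2-fold with a 2-fold difference. With that scaling the wild-type responses of cox-6, subunit 5 and atp-2 were only -0.24, -0.31 and -0.37. Those in Δczt-1 were 0.68, 0.90 and 0.32, so the wild-type fall depended on the scaling.

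Other mitochondrial functions differed less or in the opposite sense. Complex III with cytochrome c had a median difference of 0.39 (0.35 after the length medians) over 7 genes, complex I one of 0.24 (-0.04 after the length medians) over 29 and complex II with the TCA cycle one of 0.18 (0.33 after the length medians) over 17. No gene of complex I or III reached a difference of 2-fold. Cytochrome c itself (cyc-1, NCU01808) fell strongly in both strains, with 178 and 2448 FPKM in Δczt-1 and 476 and 3560.3 FPKM in wild type. The 48 genes of mitochondrial import and carriers had a median difference of -0.52 (-0.46 after the length medians) with members on both sides. The carrier RIM2 (NCU01916), which brings pyrimidine nucleotides into mitochondria in yeast, had 0.251 FPKM with staurosporine and 28.4 FPKM with DMSO in Δczt-1, against 9.53 and 10.96 FPKM in wild type, a gained fall with a difference of -4.37. A mitochondrial phosphate carrier (NCU07465) moved the other way and reversed, with 22.9 and 7.35 FPKM in Δczt-1 and 6.81 and 18.2 FPKM in wild type. The alternative oxidase aod-1 (NCU07953), a bypass of complexes III and IV, had 9.77 and 81.8 FPKM in Δczt-1 and 19.3 and 369 FPKM in wild type, a fall in both strains that was smaller in Δczt-1.

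Fermentation and carbon reserves held the highest difference of all rows and several others of its sign. Alcohol dehydrogenase I (adh-1, NCU01754), which turns acetaldehyde into ethanol, had 48.2 FPKM with staurosporine and 3.41 FPKM with DMSO in Δczt-1, against 10.1 and 41.8 FPKM in wild type, and its difference of 5.43 was the highest in the data. The drug-treated library was thus the high one in Δczt-1 and the low one in wild type. Pyruvate decarboxylase (cfp, NCU02193), the step before it, had 41.5 and 30.7 FPKM in Δczt-1 and 23.5 and 428 FPKM in wild type, a fall lost in Δczt-1 whose DMSO level was already low. Glycogen phosphorylase (NCU07027), which releases glucose from glycogen, had 88.6 and 10.6 FPKM in Δczt-1 and 25.3 and 53.4 FPKM in wild type, and the trehalose-splitting enzyme gene tre-2 (NCU04221) had 54.8 and 20.9 FPKM in Δczt-1 and 34.9 and 31.5 FPKM in wild type. Phosphoenolpyruvate carboxykinase (acu-6, NCU09873), the entry to gluconeogenesis, had 2.41 and 3.19 FPKM in Δczt-1 and 2.55 and 25.3 FPKM in wild type. Acetate use went against these: acetyl-coenzyme A synthetase (acu-5, NCU06836) lost its rise with 118 and 215 FPKM in Δczt-1 and 342 and 150.3 FPKM in wild type, and isocitrate lyase (acu-3, NCU04230) of the glyoxylate cycle rose less in Δczt-1 with 125 and 52.3 FPKM in Δczt-1 and 364 and 46.6 FPKM in wild type. Over the 18 genes of fermentation and acetate use, 7 (38.9%, against 13.5% of all rows) were at or above 1 and 4 (22.2%, near the 17.5% of all rows) at or below -1. The 8 genes of trehalose and glycogen were split, with 4 differences above 0 and 4 below 0. Their median was 0.21 (0.57 after the length medians). At or above 1 were 2 (25.0%) and at or below -1 was 1 (12.5%). Glycolysis, with 21 genes, had a median difference of -0.13 (0.12 after the length medians) and 12 genes without a 2-fold response or difference, against 46.6% of all rows.

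**Figure D5:**
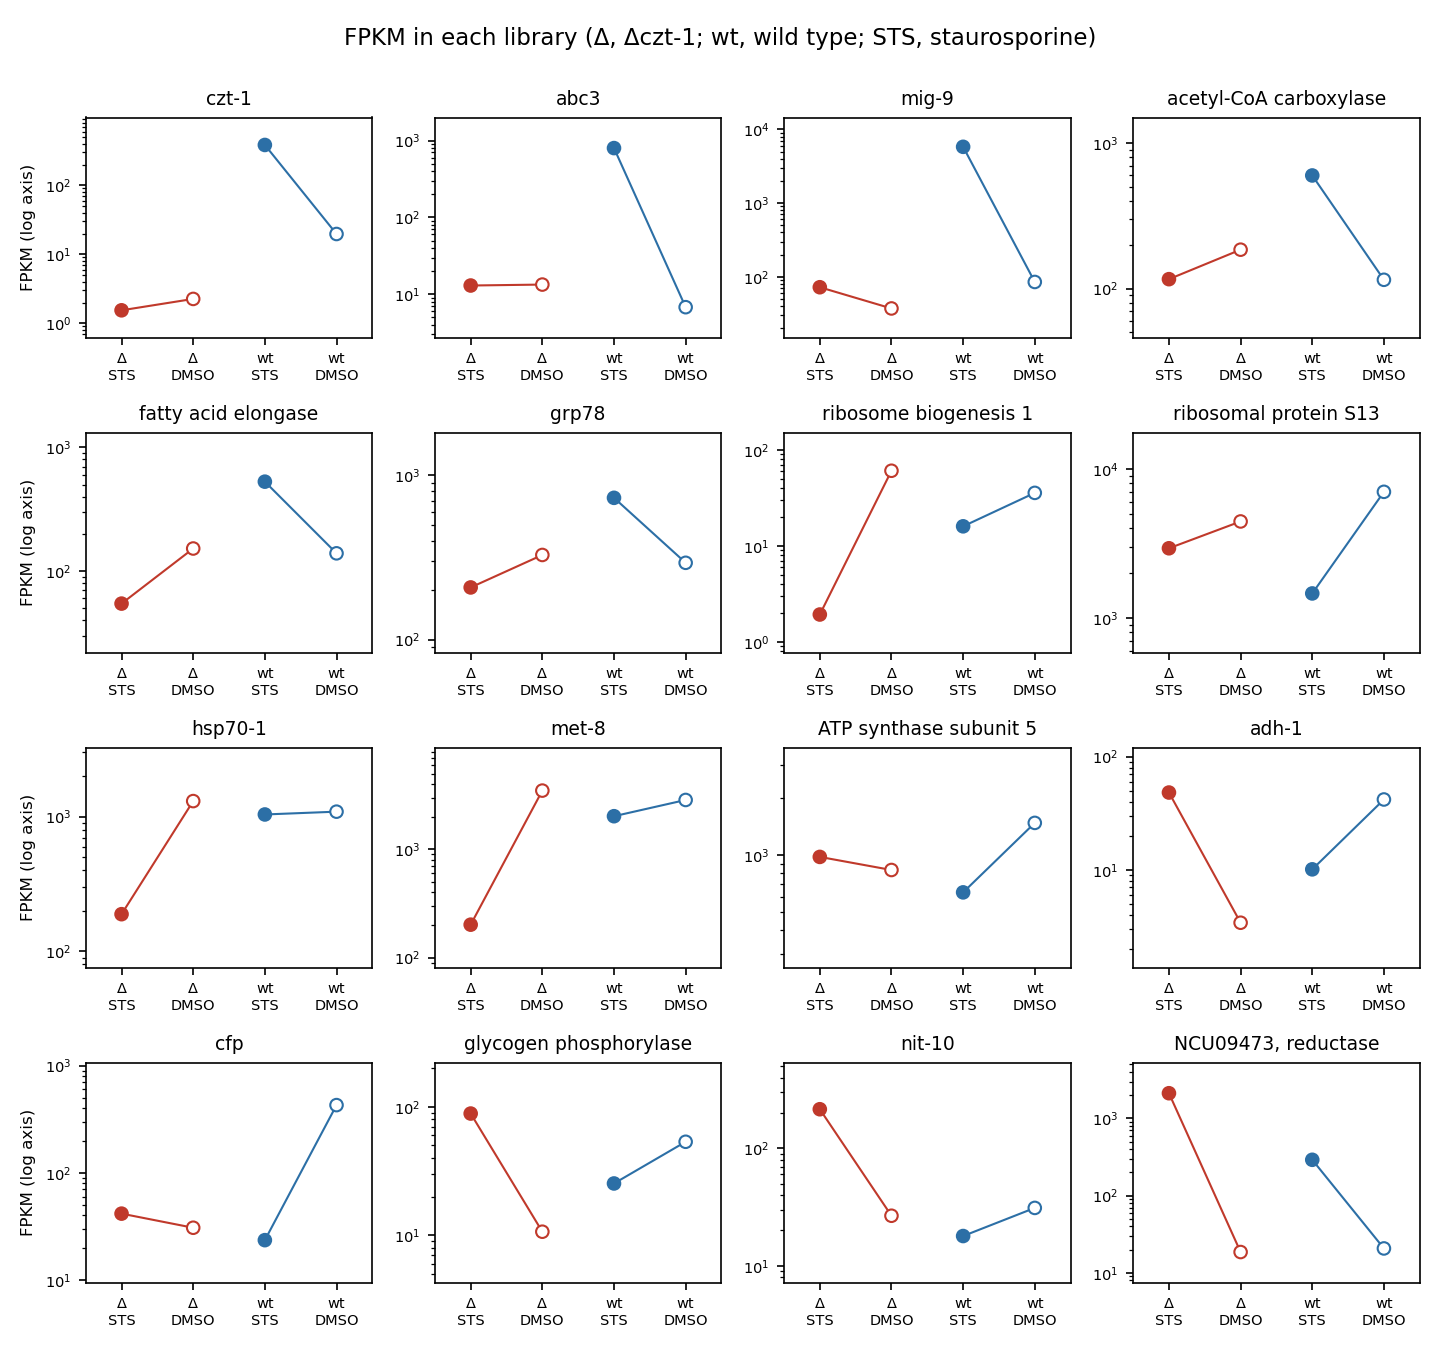
FPKM on a log axis of 16 genes in each library, from left to right Δczt-1 with staurosporine (STS), Δczt-1 with DMSO, wild type (wt) with staurosporine and wild type with DMSO, with filled points for staurosporine and open points for DMSO, 1 library per point. Lines join the libraries of a strain; abc3 is 12.99 and 13.4 in Δczt-1 and 798 and 6.79 in wild type, and adh-1 slopes in opposite directions in the 2 strains.

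The plot of levels shows the 4 shapes that recur in these results: a rise seen in wild type alone (abc3, acetyl-CoA carboxylase), a fall far deeper in Δczt-1 (met-8, hsp70-1), a fall seen mainly in wild type (cfp, ATP synthase subunit 5) and slopes of opposite sign (fatty acid elongase, adh-1).

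Amino acid synthesis held gained falls. Its 57 genes had a median difference of -0.42 (-0.32 after the length medians), with 16 (28.1%, against 17.5% of all rows) at or below -1 and 0 at or above 1. A fall was gained in 12 genes, where 6.28% of all rows gained one, and 23 genes reached 2-fold in neither strain nor in the difference, where 46.6% of all rows did so. Methionine synthase (met-8, NCU06512) had 202 FPKM with staurosporine and 3488 FPKM with DMSO in Δczt-1, against 2024 and 2858 FPKM in wild type, and the methylenetetrahydrofolate reductase gene NCU07690, which makes its methyl donor, had 27.4 and 356 FPKM in Δczt-1 and 208 and 251 FPKM in wild type. Both kept most of their level in wild type. The gene lys-3 (NCU03010) of lysine synthesis had 25 and 123 FPKM in Δczt-1 and 109 and 70.97 FPKM in wild type, and aro-1 (NCU01632), which joins several steps of the shikimate pathway in one protein, had 78.2 and 179 FPKM in Δczt-1 and 142 and 98.97 FPKM in wild type. At the same FPKM sum lys-3 counted as reversed and aro-1 as a lost rise, while met-8 and NCU07690 stayed gained falls. The gene arg-3 (NCU02677) for the large subunit of the carbamoyl-phosphate synthase of arginine synthesis reversed, with 104 and 275 FPKM in Δczt-1 and 710.0 and 158 FPKM in wild type. The NAD-specific glutamate dehydrogenase gdh-1 (NCU00461), which breaks glutamate down, lost its rise with 8.67 and 14.4 FPKM in Δczt-1 and 79.7 and 12.5 FPKM in wild type.

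Among the genes with large positive differences were some of the uptake and breakdown of nitrogen and phosphate compounds, which were picked for their size and are not a list. The nitrate transporter gene nit-10 (NCU07205) gained a rise with 215 FPKM with staurosporine and 26.7 FPKM with DMSO in Δczt-1, against 17.9 and 31.1 FPKM in wild type. Uricase (NCU07853), an enzyme of purine breakdown, reversed with 40.5 and 7.71 FPKM in Δczt-1 and 12.2 and 59.4 FPKM in wild type, and so did a urea transporter (NCU09909) with 37.3 and 5.93 FPKM in Δczt-1 and 1.62 and 4.92 FPKM in wild type and a uracil permease (NCU07334) with 26.3 and 9.202 FPKM in Δczt-1 and 2.09 and 7.75 FPKM in wild type. The phosphate transporter pho-5 (NCU08325) had 33.3 and 2.3 FPKM in Δczt-1 and 3.298 and 4.17 FPKM in wild type, and a glycerophosphoryl diester phosphodiesterase (NCU10038), which can free phosphate from lipid remnants, had 59.3 and 4.49 FPKM in Δczt-1 and 4.98 and 6.13 FPKM in wild type. Treated Δczt-1 was the highest library in each of these except uricase. Permeases for amino acids had 7 of 26 genes (26.9%, against 17.5% of all rows) at or below -1 and 2 (7.69%, against 13.5%) at or above 1, with a median difference of -0.61 (-0.42 after the length medians). An amino acid permease (NCU05776) reversed with 28.8 and 139 FPKM in Δczt-1 and 295 and 99.5 FPKM in wild type, and the monosaccharide transporter hgt-1 (NCU10021) reversed in the same sense with 30.05 and 121 FPKM in Δczt-1 and 466 and 158 FPKM in wild type.

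Of the 16 ABC transporters measured, abc3 included, 5 lost a rise, where 3.34% of all rows did, and 6 (37.5%, against 17.5% of all rows) were at or below -1. The list had a median difference of -0.85, but their median length was 4990 bases and the value after subtracting the length medians was -0.32. Besides abc3, the multidrug resistance gene NCU07546 lost its rise with 8.801 FPKM with staurosporine and 14.8 FPKM with DMSO in Δczt-1, against 33.5 and 6.51 FPKM in wild type, and so did NCU04021 with 13.4 and 7.41 FPKM in Δczt-1 and 25.3 and 4.93 FPKM in wild type. Near-identical members of this family may share reads, so their values are uncertain. The 49 MFS transporters other than sugar carriers had a median of -0.06 (-0.03 after the length medians) with 11 (22.4%) at or above 1 and 8 (16.3%) at or below -1, against 13.5% and 17.5% of all rows. The MFS transporter NCU04656 lost its rise with 118 and 191 FPKM in Δczt-1 and 619.8 and 128 FPKM in wild type, while NCU10368 reversed with 45.4 and 9.55 FPKM in Δczt-1 and 2.99 and 9.71 FPKM in wild type and a MatE family transporter (NCU04672) gained a rise with 27.2 and 1.21 FPKM in Δczt-1 and 2.63 and 1.14 FPKM in wild type. Of 10 cytochrome P450 genes measured, 4 gained a rise, where 6.91% of all rows did, among them NCU05006 with 46.8 and 12.4 FPKM in Δczt-1 and 18.3 and 19.8 FPKM in wild type.

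Among redox genes no common direction was seen. The 39 antioxidant enzymes had a median difference of 0.21 (0.04 after the length medians), and 19 reached 2-fold in neither strain nor in the difference, near the 46.6% of all rows. Catalase-1 (cat-1, NCU08791), which removes hydrogen peroxide, rose in both strains with 28.2 and 1.37 FPKM in Δczt-1 and 42.6 and 3.29 FPKM in wild type, and the catalase-peroxidase cat-2 (NCU05770) rose further in Δczt-1 with 16.1 and 1.19 FPKM in Δczt-1 and 5.53 and 1.17 FPKM in wild type. A thioredoxin (NCU03714) reversed with 4.98 and 17.98 FPKM in Δczt-1 and 51.4 and 13.8 FPKM in wild type. The catalytic subunit of glutamate-cysteine ligase (NCU01157), the first enzyme of glutathione synthesis, fell in both strains and further in Δczt-1 with 1.33 and 59.5 FPKM in Δczt-1 and 10.8 and 68.2 FPKM in wild type. The row with the largest rise in Δczt-1 was NCU09473, described as a 3-ketoacyl-acyl carrier protein reductase, with 2117 FPKM with staurosporine and 18.6 FPKM with DMSO in Δczt-1, against 291 and 20.7 FPKM in wild type, a rise in both strains that was larger in Δczt-1. A list of 9 genes that the paper tied to cell death or to czt-1 expression had a median difference of 0.27, with 6 above 0. In this list 1 gene lost a rise (11.1%, against 3.34% of all rows). It was the AIF-like oxidoreductase gene amid-2 (NCU12058), with 2.598 and 1.96 FPKM in Δczt-1 and 10.04 and 1.73 FPKM in wild type. A fall was gained in 2 members (22.2%, against 6.28% of all rows). One was tah-3 (NCU03686), lowest in the list at -2.83, with 13.4 and 89.4 FPKM in Δczt-1 and 31.1 and 27.2 FPKM in wild type. Highest, at 2.54, was NCU06977, with 25.7 and 1.23 FPKM in Δczt-1 and 7.54 and 3.14 FPKM in wild type. It was the 1 member that rose in both strains and by over 2-fold more in Δczt-1 (11.1%, against 1.44% of all rows). Another member, NCU05850, rose in both strains with 77.4 and 2.61 FPKM in Δczt-1 and 50.9 and 3.64 FPKM in wild type.

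Calcium transport lost rises in 7 of 26 genes (26.9%, against 3.34% of all rows), although the median difference of the list was -0.29 (-0.12 after the length medians). The calcium pump gene nca-2 (NCU04736) had 28.5 FPKM with staurosporine and 43.3 FPKM with DMSO in Δczt-1, against 117 and 30.5 FPKM in wild type, and the vacuolar calcium/proton exchanger cax (NCU07075) had 12.4 and 18.5 FPKM in Δczt-1 and 43.2 and 14.1 FPKM in wild type. Both remove calcium from the cytosol. The plasma membrane channel subunit Cch1 (NCU02762), which lets calcium in, had 4.83 and 8.36 FPKM in Δczt-1 and 10.96 and 4.42 FPKM in wild type, and a phospholipase C (NCU02175), an enzyme of the pathway that releases stored calcium, had 12.4 and 18.4 FPKM in Δczt-1 and 14.96 and 5.43 FPKM in wild type. For this phospholipase C the strains differed mainly with DMSO, where Δczt-1 was high. The channel Yvc1 (NCU11680), which releases calcium from the vacuole in yeast, reversed in the opposite sense with 27.9 and 5.83 FPKM in Δczt-1 and 7.48 and 27.7 FPKM in wild type.

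Transcription factors had more negative than positive differences. Of 72 zinc cluster and other transcription factors, 29 (40.3%) were at or below -1 and 2 (2.78%) at or above 1, against 17.5% and 13.5% of all rows, with a median difference of -0.68. The deleted gene czt-1 was counted among the 72 and among the 29, and its value was set by the deletion itself. Their median length was 3742 bases, and the value after subtracting the length medians was -0.43. The bZIP factor NCU00223 had 13.5 FPKM with staurosporine and 23.1 FPKM with DMSO in Δczt-1, against 61.7 and 12.8 FPKM in wild type, and the C2H2 factor NCU05285 had 6.41 and 81.3 FPKM in Δczt-1 and 45.1 and 52.98 FPKM in wild type. Over the list, 9 factors, czt-1 among them, lost a rise and 11 gained a fall, against 3.34% and 6.28% of all rows. Protein kinases, the targets of staurosporine, had a median difference of -0.15 (0.18 after the length medians) over 82 genes, of which 47 had neither a 2-fold response nor a 2-fold difference, against 46.6% of all rows. The kinase gene pkac-2 (NCU00682), a catalytic subunit of protein kinase A, gained a rise with 53.6 and 20.9 FPKM in Δczt-1 and 19.8 and 29.9 FPKM in wild type, and stk-55 (NCU09595) gained a fall with 1.84 and 18.3 FPKM in Δczt-1 and 7.38 and 8.72 FPKM in wild type.

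Genes of light, clock and conidiation split. The photoreceptor and transcription factor white collar 1 (wc-1, NCU02356) reversed with 6.13 FPKM with staurosporine and 18.2 FPKM with DMSO in Δczt-1, against 19.8 and 7.64 FPKM in wild type, and so did the clock-controlled gene ccg-8 (NCU09686) with 5.07 and 23.2 FPKM in Δczt-1 and 45.03 and 18.2 FPKM in wild type. Both were highest in treated wild type and lowest in treated Δczt-1. Against this, 3 conidiation genes rose in both strains and further in Δczt-1: con-6 (NCU08769) had 15.2 and 1.91 FPKM in Δczt-1 and 5.28 and 1.94 FPKM in wild type, con-8 (NCU09235) had 25.3 and 2.04 FPKM in Δczt-1 and 5.76 and 1.13 FPKM in wild type and con-10 (NCU07325) had 30.5 and 1.29 FPKM in Δczt-1 and 8.14 and 1.26 FPKM in wild type. The clock-controlled gene ccg-1 (NCU03753) gained a rise with 209 and 30.1 FPKM in Δczt-1 and 247 and 166 FPKM in wild type. Its strain difference lay mainly in the DMSO libraries, where Δczt-1 was low. Phytoene synthase (al-2, NCU00585) of carotenoid synthesis lost its fall with 26.3 and 14.2 FPKM in Δczt-1 and 9.09 and 27.1 FPKM in wild type.

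Of the 75 reversed rows, 10 of the 33 with a wild-type rise and 10 of the 42 with a wild-type fall were reversed under each of 3 other scalings (the same FPKM sum, responses centred on the median row and the same upper quartile). Those include, among genes named above, the thioredoxin NCU03714, the amino acid permease NCU05776, ccg-8 and hgt-1 for wild-type rises and adh-1 and uricase for wild-type falls. The other reversed genes named, such as the elongases, wc-1, glycogen phosphorylase and Yvc1, had a response under 2-fold in a strain at some scaling and kept a difference of the same sign.

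Functions with little strain difference included DNA replication and repair, where 55 of 70 genes, against 46.6% of all rows, had neither a 2-fold response nor a 2-fold difference and the median difference was -0.14 (0.09 after the length medians). Histones and chromatin had 30 of 45 such genes and a median of -0.34 (-0.15 after the length medians). Actin (act, NCU04173) had 1224 and 1517 FPKM in Δczt-1 and 1641 and 1591 FPKM in wild type, and its difference was -0.35.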

How the data were processed

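RNA-seq values were analysed for 4 samples, 1 library for each strain and treatment. The FPKM were made by the authors from single reads of 50 bases, with TopHat2 2.0.4 and Cufflinks 2.0.2 per the submitters' processing notes, and were deposited with decimal commas in tables of paired libraries. The genome build was not given in the sources used here. Log2 ratios, test statistics, p-values and q-values of the authors' Cuffdiff comparisons are also in the tables and were not used.

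Responses were differences of log2(FPKM + 1), with the pseudocount of 1 understating the change of low genes. The difference was computed for rows in which a library or more reached an FPKM of 1. Of the rows kept, 64 join several gene names. Function lists were drawn up from terms in the description of each row and trimmed after their members had been seen. The members and lists were chosen with earlier results of these data known. Genes named were those of lists of locus names, in each class the 8 described genes with the largest difference in size and the 3 largest of any description, and in each list up to 5 members and the one nearest to the median, all but the last and the locus lists at an FPKM of 10 or more somewhere. Not every gene that meets this rule is named. Values of near-identical gene copies are uncertain, since it is unknown here how shared reads were assigned. Names and lengths came from the RefSeq table of NC12, in which 9141 of 9691 rows matched a locus tag, and its start positions gave the order of the genes around czt-1. Alternatives tried were a pseudocount of 0.1 or 5, a filter at an FPKM of 10 or none, 3 scalings, thresholds of 1.5-fold and 4-fold, a response under 1.5-fold in the other strain for lost and gained rows, leaving out joined rows, and subtraction of length medians, which was chosen after seeing the data. Python 3.11.15 with pandas 2.3.3 and numpy 2.4.6 was used, and the functions were tested on simulated data.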

Additional observations from a re-analysis of the deposited data

Results flagged for a closer look

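The 2 strains responded in opposite directions, each by at least 2-fold, in 19 of the genes named here, and with 1 library per group this opposition was not tested. Among genes that rose in wild type and fell in Δczt-1, the difference was -3.79 for the amino acid permease NCU05776, -3.55 for arg-3 (NCU02677), -3.53 for hgt-1 (NCU10021), -3.49 for the thioredoxin NCU03714, -3.25 for ccg-8 (NCU09686), -2.70 for wc-1 (NCU02356) and -2.47 for the mannosyl transferase NCU04454. In fatty acid synthesis it was -3.38 and -2.50 for the elongases NCU06694 and NCU08976, -2.67 for ATP citrate lyase (NCU06783) and -2.18 for cel-2 (NCU07307). Among genes that fell in wild type and rose in Δczt-1, it was 5.43 for adh-1 (NCU01754), 4.45 for uricase (NCU07853), 3.997 for glycogen phosphorylase (NCU07027), 3.84 for Yvc1 (NCU11680), 3.64 for the urea transporter NCU09909, 3.56 for the MFS transporter NCU10368, 2.92 for the uracil permease NCU07334 and 2.82 for the phosphate carrier NCU07465.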

How the results depend on the processing

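No paired analysis was possible because each group was 1 library, and for the same reason no library could be left out. In the alternatives tried no difference of at least 1 in size of a named gene or list changed sign. Among smaller ones cat-1 (NCU08791) did, at -0.14 with a pseudocount of 5, and so did 11 list medians, each between -0.18 and 0.21 where its sign differed. In all, 40 of 948 values of named genes and 1 of 360 list medians moved by over 1.5-fold, and 71 of 110 counts stayed within 1.5 times. That median was ribosome biogenesis, at -1.19 with a pseudocount of 5.

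With a pseudocount of 0.1 reversals numbered 67 of a wild-type rise and 109 of a wild-type fall, and 212 rises were larger in Δczt-1. With a pseudocount of 5, which damps low genes, 566 rows were at or above 1 and 816 at or below -1, with 127 lost rises, 255 gained rises, 293 gained falls, 13 reversed falls, 56 larger rises and 137 larger falls. With the filter at an FPKM of 10, which leaves fewer rows, 652 rows were at or above 1, with 271 gained rises and 20 reversed falls. At the same FPKM sum there were 828 lost rises, 67 lost falls, 54 reversed rises, 15 reversed falls, 219 larger rises and 74 larger falls. At 1.5-fold, 1915 rows were at the upper and 2355 at the lower threshold, with 596 lost rises, 282 lost falls, 848 gained rises, 195 reversed rises, 126 reversed falls, 353 larger rises and 509 larger falls. At 4-fold, 219 and 294 rows were past the thresholds, with 33 lost rises, 34 lost falls, 105 gained rises, 156 gained falls, 0 reversed rises, 2 reversed falls, 4 larger rises and 10 larger falls. Unknown read numbers limit the precision of low genes.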

Other observations

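Cell wall synthesis and remodeling, with 61 measured genes, had a median difference of -0.17, and 0.21 after the length medians, with 8 genes at or above 1 and 11 at or below -1, and these shares are near those of all rows (13.5% and 17.5%). The non-anchored cell wall protein gene ncw-1 (NCU05137) lost its fall, with 12.5 and 8.67 FPKM in Δczt-1 and 2.897 and 27.1 FPKM in wild type. Another one, ncw-3 (NCU07817), gained a rise with 41.96 and 5.098 FPKM in Δczt-1 and 10.6 and 11.99 FPKM in wild type, as did the chitinase gene gh18-7 (NCU06020), whose enzyme class cuts the chitin of the wall, with 46.98 and 12.04 FPKM in Δczt-1 and 21.3 and 18.2 FPKM in wild type. The glucan synthesis regulator cot-2 (NCU04189) gained a fall with 20.6 and 50.4 FPKM in Δczt-1 and 46.6 and 25.2 FPKM in wild type. Actin, microtubules and motors had a median of -0.37 (-0.19 after the length medians) over 58 genes, and the lowest of them were kinesin NCU06832, a microtubule motor, with 5.44 and 27.3 FPKM in Δczt-1 and 15.4 and 10.02 FPKM in wild type, and a septin (NCU01998), of the filaments that mark sites of division and branching, with 5.17 and 32.4 FPKM in Δczt-1 and 33.7 and 28.3 FPKM in wild type.

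Several of the largest differences belonged to genes described only as hypothetical proteins, which made up 3558 of the 7896 rows. NCU10092 had 1.34 and 2.03 FPKM in Δczt-1 and 34.8 and 0.599 FPKM in wild type, a rise lost in Δczt-1. NCU03684 had 254 and 6.75 FPKM in Δczt-1 and 12.7 and 9.04 FPKM in wild type, a rise gained in Δczt-1, and NCU08155 rose in both strains and further in Δczt-1 with 306 and 4.29 FPKM in Δczt-1 and 12.2 and 5.47 FPKM in wild type. NCU04276 fell in both strains and less in Δczt-1 with 2.97 and 11.7 FPKM in Δczt-1 and 3.77 and 441 FPKM in wild type. NCU09395 gained a fall with 0.478 and 21.5 FPKM in Δczt-1 and 7.17 and 4.82 FPKM in wild type.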
